A study of Rattus norvegicus with 18 samples.

Results

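Eef2, Scd2, Fndc3c1 and Cdc20 are 4 rat genes that each have a probe set whose signal was higher in all 5 cultures of germ cells on feeder layers than in any other population of the series. All probe sets annotated to one of the 4 genes were taken, which gave 4 of 13807 genes and 12 of 31042 probe sets on the arrays. Eef2 had 2 probe sets, Scd2 had 4, Fndc3c1 had 1 and Cdc20 had 5. No probe set annotated to several genes held one of them. The 4 genes were chosen for their signals in these same libraries, so their levels and folds are descriptions and carry no test.

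Transcripts of testis cells from 22-day-old rats were measured on 18 one-colour oligonucleotide arrays, 1 of array type A and 1 of array type B for each of 9 populations. The 5 feeder libraries were germ cells kept for 1, 5, 10 or 20 days on STO and germ cells kept for 20 days on MSC1. The 4 other libraries were laminin-binding germ cells, laminin non-binding germ cells, interstitial cells and tubular somatic cells. The labels name no feeder for these 4, but they do call both laminin-sorted populations cultured, without a day. The sources used here do not state the strain, how the somatic fractions were prepared or how many animals were used, and no population was replicated. STO is a line of mouse embryonic fibroblasts. MSC1 is a mouse Sertoli line, and Sertoli cells are the nurse cells of the tubule. A feeder library can therefore hold mouse RNA beside rat RNA, and none of the 9 libraries was of feeder cells alone. Whether a signal came from mouse or from rat transcripts was not tested. In such bulk samples fewer cells of a type and less RNA per cell cannot be told apart.

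Eef2 encodes elongation factor 2, the GTPase that moves the ribosome along the messenger RNA after each amino acid is added. Scd2 encodes a stearoyl-CoA desaturase, an enzyme of the endoplasmic reticulum that puts the first double bond into saturated fatty acids. Cdc20 encodes an activator of the anaphase-promoting complex, the ubiquitin ligase whose action on securin and cyclin B lets chromosomes separate and mitosis or meiosis end. Fndc3c1 encodes a protein with fibronectin type III domains and is related to Fndc3a, a gene known from mice to be needed for spermatid adhesion to Sertoli cells. Elongation factor 2 is used by every cell that makes protein, whereas Cdc20 is a gene of dividing cells.

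In GRCr8, Eef2 (gene 29565) spans 9183836 to 9196255 of chromosome 7, Cdc20 (gene 64515) on chromosome 5 from 137251596 to 137255799, and Fndc3c1 (gene 317224) on chromosome X from 75562242 to 75630812. Scd2 (gene 83792) is on chromosome 1 from 253118377 to 253131436, next to its relatives Scd4, from 253152519 to 253165216, and Scd, from 253218968 to 253232101. The positions and sequences of the probes were not used here, so no probe set is placed in an exon or a UTR. The promoters of the 3 genes with several probe sets are shown because the probe sets of a gene, where they read its rat transcripts from this start, share the promoter while their signals differed. Each runs 5′ to 3′ on the strand of the gene over the 250 bases before and 50 bases after the start that RefSeq's promoter table uses in GRCr8 (chr7:9189189-9189488, minus strand, for Eef2; chr1:253118127-253118426, plus strand, for Scd2; chr5:137255750-137256049, minus strand, for Cdc20), and capitals mark the motifs described after them. The starts used for Eef2 and for Fndc3c1 lie inside the spans of these genes given above.
Eef2: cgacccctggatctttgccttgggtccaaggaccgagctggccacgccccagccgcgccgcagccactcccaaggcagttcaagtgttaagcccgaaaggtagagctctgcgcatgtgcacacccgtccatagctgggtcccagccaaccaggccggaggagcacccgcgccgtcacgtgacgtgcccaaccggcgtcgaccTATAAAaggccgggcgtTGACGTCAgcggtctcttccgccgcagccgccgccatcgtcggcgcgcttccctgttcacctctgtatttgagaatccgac
Scd2: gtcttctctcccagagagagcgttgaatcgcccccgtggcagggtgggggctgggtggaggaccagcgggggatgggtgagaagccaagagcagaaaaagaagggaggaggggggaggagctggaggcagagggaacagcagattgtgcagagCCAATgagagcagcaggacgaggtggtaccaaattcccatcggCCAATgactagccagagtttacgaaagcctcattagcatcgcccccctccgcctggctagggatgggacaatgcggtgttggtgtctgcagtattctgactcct
Cdc20: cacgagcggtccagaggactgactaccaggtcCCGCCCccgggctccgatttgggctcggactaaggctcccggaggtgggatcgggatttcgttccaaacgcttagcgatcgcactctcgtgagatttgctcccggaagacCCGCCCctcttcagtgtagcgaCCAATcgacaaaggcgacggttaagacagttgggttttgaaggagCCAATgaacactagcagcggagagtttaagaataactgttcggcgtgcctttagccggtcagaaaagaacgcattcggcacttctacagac
Both strands were searched for the CCAAT box, for TATAAA, for the GC box GGGCGG and for TGACGTCA, the palindromic cyclic AMP response element. Eef2 held 1 TATAAA and 1 TGACGTCA, Scd2 held 2 CCAAT, and Cdc20 held 2 CCAAT and 2 GGGCGG, the latter read from the other strand. The window of Fndc3c1 held none of the 4. Of 33469 rat promoter windows of the same length 37.5% held CCAAT, 33.1% GGGCGG, 14.2% TATAAA and 1.83% TGACGTCA. No matches overlapped in these windows, and a match is a run of letters and not a shown binding site.

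Signals are intensities on a linear scale, which the authors had scaled to an average of 250 on each array, and signals under a floor of 50 were raised to it before any fold. A probe set was called feeder-high where the lowest of the 5 feeder libraries was above the highest of the 4 others, the geometric mean of the 5 reached 250 and the fold of the geometric means reached 3. Feeder-high signals were found for 4 of the 12 probe sets, 1 of each gene. Over all probe sets 0.718% were feeder-high (223 of 31042) and 0.477% were feeder-low by the mirror rule (148). The members were chosen for this pattern, and nothing is read from the difference. With no size asked, 4.4% of all probe sets had every feeder library above every other library. Whether these signals were feeder-only was not tested. The probe sets of Eef2, Scd2 and Fndc3c1 read up to 116.3, 205.4 and 172.5 in libraries with no named feeder. These 3 are on array type B, where the median signal of those libraries was 103.7 to 131.1. Detection calls were not used, so such readings do not show that a transcript was present. The probe set of Cdc20 read at most 52 there, close to the floor. Of the 4 feeder-high probe sets, 3 are on array type B, where 0.896% of probe sets were feeder-high. That of Cdc20 is on type A, where 0.548% were. A probe set's level is set against no other probe set's here, since probes differ in their response.

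Array error came from the 100 probe sets that both array types hold. The SD per array type of the feeder over other log2 fold was 0.16, so that 2 SD made a 1.24-fold difference. For a pair of populations the mean SD over 36 pairs was 0.25, and 2 SD made a 1.40-fold difference. Single probe sets differed by up to 1.12 between types in the feeder over other log2 fold. This error covers the arrays and leaves out animals, cultures and amplification.

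**Figure D1:**
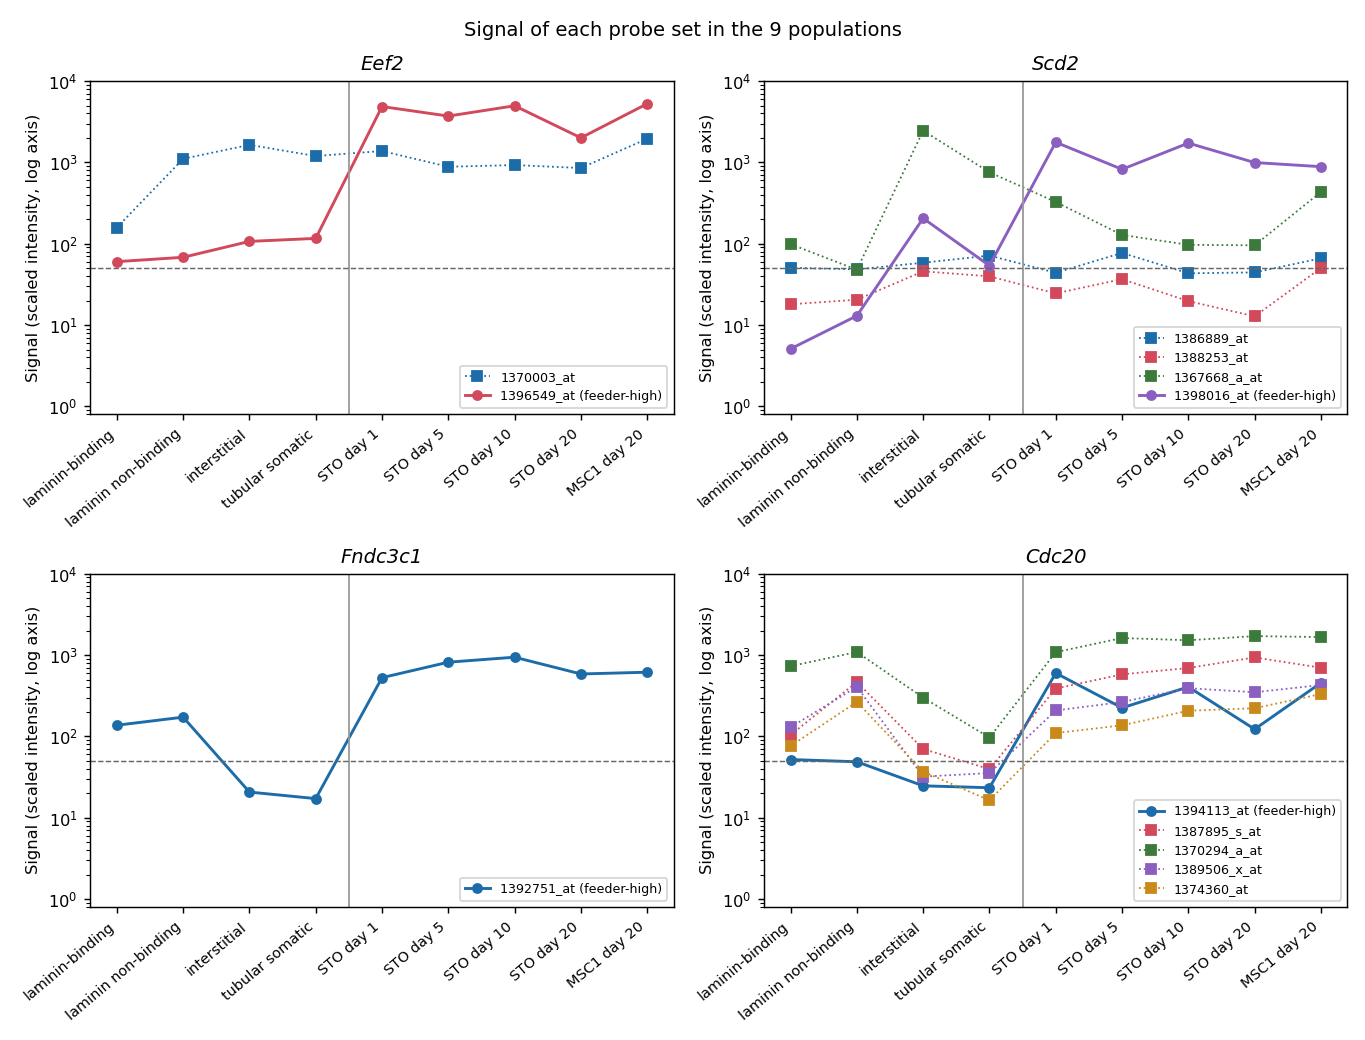
Signal of the 12 probe sets (log axis) in the 9 populations, 1 array each; the vertical line separates the 4 populations with no named feeder from the 5 feeder libraries, the dashed line is the floor of 50, and circles on solid lines are feeder-high. Each gene has 1 feeder-high probe set, such as 1396549_at of Eef2 at 2003.3 to 5257.7 on feeders and 60.2 to 116.3 elsewhere.

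The 2 probe sets of Eef2 disagreed more than those of any other gene compared. Probe set 1396549_at read 4857.5, 3709.4, 4963.6 and 2003.3 on STO days 1, 5, 10 and 20 and 5257.7 on MSC1. It read 60.2 in laminin-binding, 68.1 in non-binding, 106.8 in interstitial and 116.3 in tubular somatic cells. Every feeder library was at least 17.2-fold above the highest other library, a gap that was the second widest of all 31042 probe sets. The fold of the geometric means was 46.6, or 5.54 on the log2 scale. On feeders the libraries of MSC1 and STO days 1, 5 and 10 followed each other within array error in the order of levels, and STO day 20 was 1.85-fold under the next.

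Probe set 1370003_at, built on the RefSeq transcript of Eef2, was high in most populations. It read 1380, 883.1, 927 and 852.5 on STO days 1, 5, 10 and 20 and 1953.1 on MSC1, against 158 in laminin-binding, 1106.2 in non-binding, 1641.7 in interstitial and 1196.2 in tubular somatic cells. The feeder libraries and the others overlapped, with a fold of 1.48. The laminin-binding library stood apart, 5.40-fold under the next population and 7.0-fold under non-binding cells, and without it the log2 fold changed sign from 0.57 to -0.19. In both libraries 1396549_at was too near the floor to show such a difference. Over the 9 populations their log2 signals had a Pearson correlation of 0.37, which is a description of 9 shared RNA samples. The annotation gives no source sequence for 1396549_at, as for 547 probe sets with 1 gene.

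Scd2 had 1 feeder-high probe set and 3 that were not. Probe set 1398016_at read 1768.2, 821.9, 1725.6 and 995 on STO days 1, 5, 10 and 20 and 885.8 on MSC1. It read 5.1 in laminin-binding, 13 in non-binding, 205.4 in interstitial and 53.7 in tubular somatic cells. The groups did not overlap, and the lowest feeder library was 4.0-fold above the interstitial library. The fold was at least 16.2, since both laminin-sorted libraries were under the floor. The interstitial library read 3.82-fold above the tubular one, which was near the floor, and the step was not called.

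Probe set 1367668_a_at of Scd2 had its highest signals in the somatic fractions instead. It read 2451.7 in interstitial and 755.9 in tubular somatic cells, 98.8 in laminin-binding and 47.9 in non-binding cells. On feeders it read 326, 128.3, 96.9 and 95.6 on STO days 1, 5, 10 and 20 and 432.9 on MSC1. All feeder libraries lay under both somatic fractions, and the feeder over other log2 fold was -0.82. Without the interstitial library it was 0.18, so its sign rests on that library. The suffix _a marks, in the maker's naming, probes shared by several transcripts of 1 gene.

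The remaining Scd2 probe sets were dim in all libraries. Probe set 1386889_at, made from the same source sequence as 1367668_a_at, read between 43.3 and 77.1 over the 9 populations, and 1388253_at read between 12.8 and 50.3. Neither reached 250 anywhere, so they carry little about the gene. The correlation of 1398016_at with 1367668_a_at over the 9 populations was -0.03, with 1386889_at -0.05 and with 1388253_at 0.23.

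Fndc3c1 was read by 1 probe set only, so no second probe set can be set beside it. Probe set 1392751_at read 527.7, 817.6, 941.7 and 585.6 on STO days 1, 5, 10 and 20 and 615.7 on MSC1. It read 137.3 in laminin-binding and 172.5 in non-binding germ cells, and 20.7 in interstitial and 17.2 in tubular somatic cells. The groups did not overlap, and the lowest feeder library was 3.06-fold above non-binding cells. The fold was at least 7.76. Laminin-sorted germ cells were above the floor and somatic cells under it, so that against the former alone the log2 fold was 2.15 and against the latter alone at least 3.77. In the order of levels no neighbouring pair within the 5 feeder libraries differed by more than array error, but the highest was 1.78-fold above the lowest. In the order of days, STO day 5 was 1.55-fold above day 1 and day 20 was 1.61-fold under day 10. Array error was 1.44-fold and 1.23-fold for these pairs.

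Cdc20 had 1 feeder-high probe set among 5, and the 4 others were high both on feeders and in non-binding germ cells. Probe set 1394113_at read 600.7, 224.7, 406 and 122.7 on STO days 1, 5, 10 and 20 and 455.5 on MSC1. It read 52 in laminin-binding, 48.8 in non-binding, 24.7 in interstitial and 23.4 in tubular somatic cells. This is the feeder-high member nearest to the threshold, with its lowest feeder library 2.36-fold above its highest other library, a fold of at least 6.22 and a geometric mean of 314 on feeders. All 4 other libraries were at or near the floor.

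Probe set 1370294_a_at of Cdc20 read 1086.1, 1620.3, 1521.2 and 1710.1 on STO days 1, 5, 10 and 20 and 1665.2 on MSC1. It read 731.4 in laminin-binding, 1090.5 in non-binding, 299.8 in interstitial and 96.8 in tubular somatic cells. It fell just outside the rule, because STO day 1 was under non-binding cells by less than array error, although the fold was 3.85. Its pattern was one of germ cell libraries over somatic ones.

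The other 3 Cdc20 probe sets were likewise higher in germ cell than in somatic libraries. Probe set 1387895_s_at read 387.8 to 935.9 on feeders, 104.3 in laminin-binding, 466.9 in non-binding, 70 in interstitial and 39.6 in tubular somatic cells. Its fold was 5.54, beside 6.22 for 1394113_at, and it was not called because non-binding cells were above STO day 1. Probe set 1389506_x_at read 208.4 to 428.3 on feeders, 129.7 in laminin-binding, 406.7 in non-binding and 32.1 and 35.4 in interstitial and tubular somatic cells. Non-binding cells lay inside the range of the feeder libraries in both. Probe set 1374360_at read 109.9 to 332.4 on feeders, 76.3 and 265.7 in binding and non-binding cells, and 36.9 and 16.4 in interstitial and tubular somatic cells. Probe sets 1370294_a_at and 1387895_s_at share a source sequence, as do 1374360_at and 1389506_x_at, so the 4 are not independent readings. The suffixes _s and _x mark probes that match transcripts of several genes or resemble other sequences.

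The 4 Cdc20 probe sets that were not feeder-high had correlations of 0.83 to 0.96 with each other over the 9 populations, and of 0.51 to 0.67 with 1394113_at. They were higher on STO day 20 than on day 1, whereas 1394113_at was lower.

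**Figure D2:**
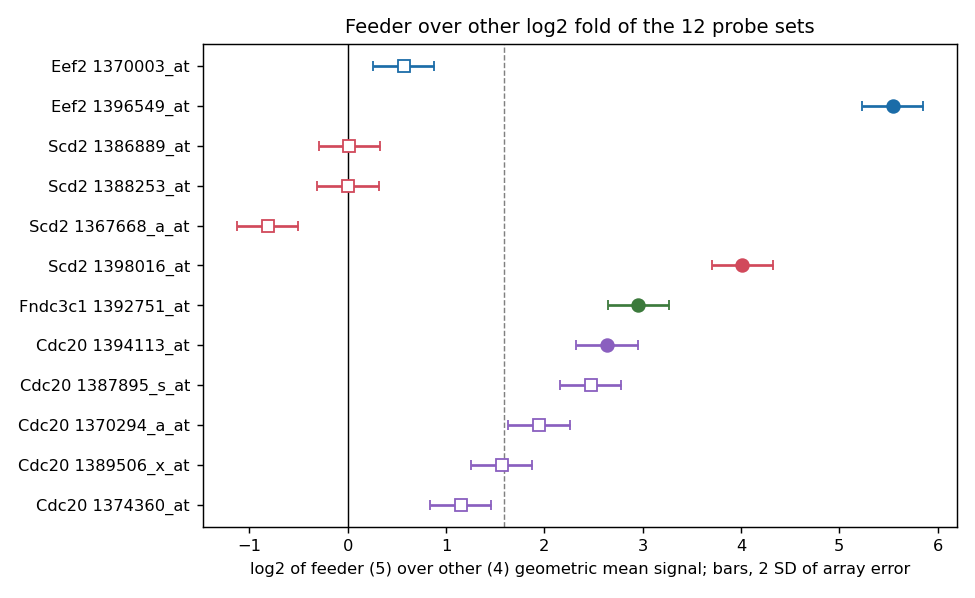
Log2 of the geometric mean signal of the 5 feeder libraries over that of the 4 others, for the 12 probe sets; bars are 2 SD of the array error, filled circles are feeder-high and the dashed line is 3-fold. The folds of the Eef2 probe sets are 0.57 and 5.54 and those of Scd2 run from -0.82 to 4.02, while the 5 Cdc20 values lie between 1.15 and 2.64.

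Disagreement between probe sets of a gene was measured as the highest minus the lowest feeder over other log2 fold, for the 1630 genes with at least 2 probe sets that reach 250 in a library. Eef2 had the widest difference, 4.97 or 31.4-fold, and Scd2 the next, 4.83 or 28.5-fold. Cdc20, with 1.49, was at place 176. The median over the 1630 genes was 0.60 and the 95th percentile 1.80. The genes had been chosen for such signals, so these places describe them and test nothing. Among genes with a feeder-high probe set, 56 had another that reached 250, and in 55 of these only 1 probe set was feeder-high. Eef2, Scd2 and Cdc20 thus shared with nearly all of those genes that a single probe set carried the call. For Cdc20 this depended on the processing, since 1370294_a_at was called as well under quantile normalization.

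**Figure D3:**
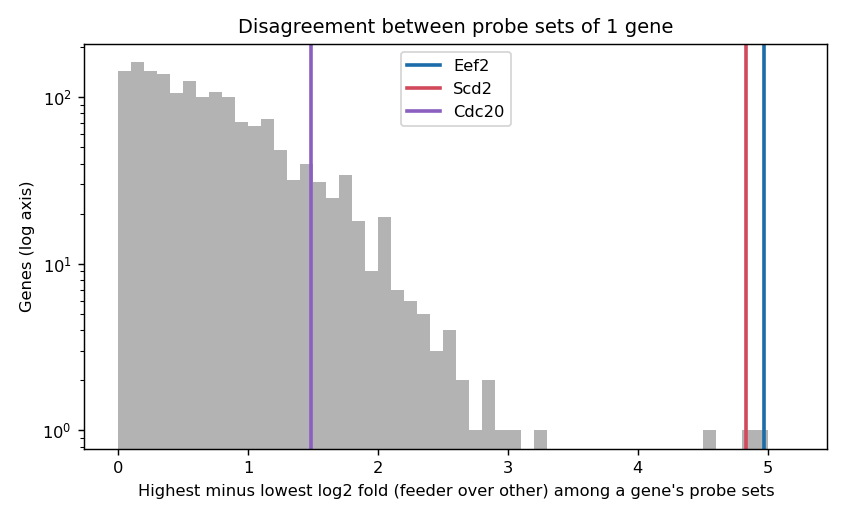
Number of genes (log axis) by the highest minus lowest feeder over other log2 fold among their probe sets, over 1630 genes with at least 2 probe sets that reach 250. Eef2 (4.97) and Scd2 (4.83) lie at the far right and Cdc20 (1.49) within the main body.

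Within the feeder libraries the 4 feeder-high probe sets did not share 1 course. Relative to its mean over the 5 libraries, Cdc20 1394113_at was at 0.93, -0.48, 0.37 and -1.36 on STO days 1, 5, 10 and 20 and at 0.54 on MSC1, on the log2 scale. Eef2 1396549_at was at 0.30, -0.08, 0.34 and -0.97 and at 0.42, the same order of signs. Scd2 1398016_at was at 0.59, -0.51, 0.56 and -0.24 and, unlike those, at -0.40 on MSC1. Fndc3c1 was lowest on STO day 1, at -0.37, where the 3 others were above their means. Over the 5 feeder libraries alone the correlation was 0.94 between Eef2 and Cdc20, 0.38 between Eef2 and Scd2, and 0.21 between Eef2 and Fndc3c1. With 5 points each these are descriptions, and all 4 probe sets share the 5 RNA samples.

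**Figure D4:**
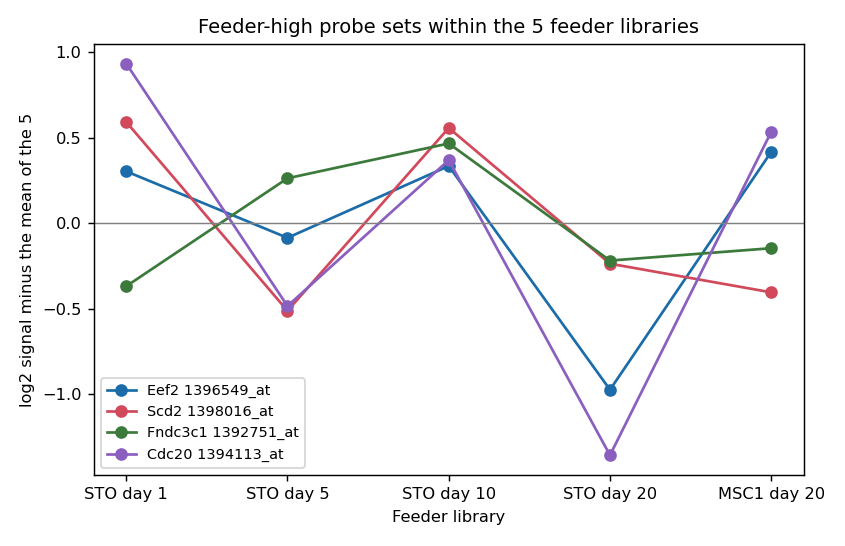
Log2 signal of the 4 feeder-high probe sets in the 5 feeder libraries minus the mean of each probe set over the 5 (1 array per point). STO day 20 is the lowest point of Eef2 (-0.97) and Cdc20 (-1.36), whereas Fndc3c1 is lowest on STO day 1 (-0.37) and Scd2 on STO day 5 (-0.51).

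Steps between single libraries were called where the brighter signal reached 250 and the fold 3. From STO day 1 to day 20, 2 of the 12 probe sets fell, where 2.64% of all probe sets were lower and 2% higher. Cdc20 1394113_at fell 4.90-fold, of which 3.31-fold came between days 10 and 20 (1.27% of all probe sets lower and 1.22% higher in that step), and Scd2 1367668_a_at fell 3.41-fold. The other 4 probe sets of Cdc20 read 1.57-fold to 2.41-fold higher on day 20 than on day 1 (log2 0.65 to 1.27), short of a call. This was beyond the 1.31-fold of array error for this pair. Single probe sets held by both array types still differed by up to 1.32 between types in this log2 fold. Eef2 1396549_at was 2.42-fold and 1370003_at 1.62-fold lower, and Scd2 1398016_at 1.78-fold lower, none of them called.

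Between feeder types on day 20, 2 of the 12 were called higher on MSC1, where 2.83% of all probe sets were higher and 2.34% lower. Scd2 1367668_a_at was 4.53-fold higher on MSC1 (432.9 against 95.6) and Cdc20 1394113_at 3.71-fold higher (455.5 against 122.7). Both Eef2 probe sets were higher by less than the threshold, 1396549_at by 2.62-fold and 1370003_at by 2.29-fold. Scd2 1398016_at (885.8 against 995) and Fndc3c1 (615.7 against 585.6) differed by less than array error. Among the other 4 Cdc20 probe sets the MSC1 over STO log2 fold ran from -0.42 to 0.58. No probe set of the 12 was called between STO days 1 and 5 or days 5 and 10, where 0.168% of all probe sets were higher and 0.206% lower, and 0.19% and 0.264%.

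The feeder-high rule asks STO day 1 to be above all 4 other libraries, so these signals are present on that day by the rule. Against laminin-binding cells 7 of the 12 probe sets were called higher on STO day 1, where 1.45% of all probe sets were, a contrast that overlaps with the one the genes were chosen on. They included Eef2 1396549_at at 80.7-fold, Scd2 1398016_at at least 35.4-fold, Cdc20 1394113_at at 11.6-fold and Fndc3c1 at 3.84-fold. Eef2 1370003_at was 8.73-fold higher, Cdc20 1387895_s_at 3.72-fold and Scd2 1367668_a_at 3.30-fold, so some of the probe sets that are not feeder-high rose in this step too. Whether cells of the laminin-binding population were the ones seeded on feeders is not stated in the labels.

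Among populations with no named feeder, 4 of the 12 were called lower in the laminin-binding than in the non-binding library, where 3.82% of all probe sets were lower and 3.65% higher. These were Eef2 1370003_at at 7.0-fold and the Cdc20 probe sets 1387895_s_at at 4.48-fold, 1374360_at at 3.48-fold and 1389506_x_at at 3.14-fold. The feeder-high probe sets read at most 172.5 in both libraries and so could not be called here. Between the somatic fractions 2 of the 12 were lower in tubular cells (3.17% of all lower, 2.54% higher), Scd2 1367668_a_at at 3.24-fold and Cdc20 1370294_a_at at 3.10-fold.

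**Figure D5:**
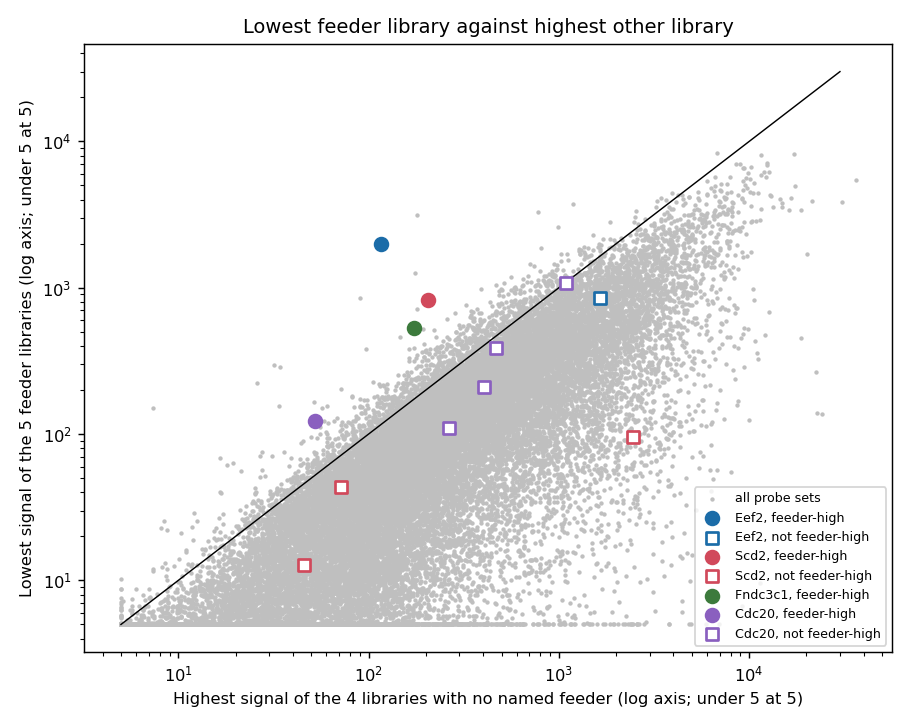
Lowest signal of the 5 feeder libraries against the highest signal of the 4 libraries with no named feeder (both log axes) for all 31042 probe sets in grey and the 12 of the 4 genes in colour; the line marks equality. The 4 filled circles lie above the line, Eef2 1396549_at at 2003.3 against 116.3, and Cdc20 1370294_a_at lies on it at 1086.1 against 1090.5.

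Among feeder-high probe sets the 10 widest gaps between the lowest feeder library and the highest other library were all on array type B, and 6 were of probe sets with no gene in the annotation, 2 of probe sets with several genes and 2 of Eef2 and Scd2. The 10 feeder-high genes with the widest gaps included all 4 members. The other 6 were Ppp4c, a catalytic subunit of protein phosphatase 4, at 2.83 times the highest other library, Dapk3, a death-associated kinase, at 2.73 times, Cad, the enzyme that starts pyrimidine synthesis, at 2.50 times, the mitochondrial helicase gene Twnk at 2.39 times, Ctdp1, a phosphatase of RNA polymerase II, at 2.36 times, and Polr3a, the largest subunit of RNA polymerase III, at 2.35 times. Eef2 with 17.2 times, Scd2 with 4.0 times and Fndc3c1 with 3.06 times were above these 6, and Cdc20 with 2.36 times was among them. All 4 other populations were under the floor in 4 feeder-high probe sets (0.0129% of all), none of them of the 4 genes.

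The named probe sets most like each feeder-high member were found by the Pearson correlation of log2 signals over the 9 populations, among probe sets of the same array type that reach 250. For Eef2 1396549_at they were Cnot9 (0.96), Mapk1ip1l (0.96), Tmem131 (0.96), Scd2 1398016_at (0.96) and Tubb6 (0.96). All but that of Tmem131, which stayed under a geometric mean of 250 on feeders, were feeder-high themselves. Each of the 5 genes had a further probe set that was not called. That of Cnot9, 1374331_at, still had every feeder library above every other, 654.8 at the lowest against 467. It missed the call by its fold of 1.82. Tubb6, a beta-tubulin gene, had folds of 5.93 for 1394144_at, the probe set found here, and 0.255 for 1376100_at. Mapk1ip1l had folds of 4.69 for 1392133_at and 0.801 and 0.723 for its other probe sets, and Tmem131 of 4.25 for 1394249_x_at and 0.866 to 0.979 for the rest.

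For Scd2 1398016_at the most alike were Mllt3 (0.99), Pcf11 (0.99), 2 probe sets of Asap1 (0.96 each) and Eef2 1396549_at (0.96). For Fndc3c1 they were Plekhh1 (0.98), Ccdc167, Ankrd34b, Utp20 and Zswim5 (0.97 each), of which 4 were feeder-high and Utp20, with a fold of 1.95, was not. For Cdc20 1394113_at they were Kbtbd4 (0.97), Tpbgl (0.96), the matrix protease gene Mmp2 (0.94), Usp24 (0.94) and Nop56 (0.94), none of them feeder-high. Correlations of at least 0.9 were reached by 67 of 7311 probe sets with Eef2 1396549_at, 37 with Scd2 1398016_at and 110 with Fndc3c1, and by 40 of 7457 with Cdc20 1394113_at. Genes that are high in one group of 5 libraries and low in the other correlate by that alone.

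The source sequences of Scd2 1398016_at and Cdc20 1394113_at are expressed sequence tags whose GenBank numbers are 2 apart. The arrays hold 4 probe sets from tags of this run of numbers, which spans 15, and 3 of the 4 were feeder-high, beside 0.718% of all probe sets. Of these 3, Scd2 and Cdc20 were chosen for that call and led to the run, so only 1 of 2 further probe sets adds to it. It is annotated to several genes, is not named here and read 3269.5 to 5372.1 on feeders and 150.9 to 781.6 elsewhere, a fold of 14.2. The remaining one, also of several genes, had a fold of 1.04 and overlapping groups. This run was looked at after the values were seen, and what the tags were made from is not given in the sources used here.

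Other genes of the same pathways gave few calls, beside 0.76% feeder-high and 0.659% feeder-low over 13807 genes read from their brightest probe set. In translation elongation and diphthamide synthesis, the modification of elongation factor 2, none of 21 genes on the arrays was feeder-high or feeder-low. The median feeder over other log2 fold was -0.13, against 0.07 over all genes. Eef1a1 of the same cycle read at least 5178.8 on feeders and up to 10579.7 elsewhere, with a fold of 0.961, and Eef1b2, an exchange factor, had a fold of 0.373. By any probe set 1 gene was called, Eef2 itself.

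In fatty acid synthesis and desaturation 1 of 23 genes was feeder-high and none feeder-low, and the 1 was Scd2 by 1398016_at. The median log2 fold was 0.21. Fasn, the fatty acid synthase, had a fold of 1.97, Elovl6, which lengthens fatty acids, 2.52, and both had overlapping groups. Their dimmer probe sets had folds of 1.32 for Fasn and 5.08 for Elovl6, also with overlapping groups. Scd, the neighbour and relative of Scd2, read 34 to 58.2 on feeders and 10.7 to 130.5 elsewhere, mostly under the floor. Of the FNDC3 and related genes 1 of 6 was feeder-high, Fndc3c1 itself, whereas Fndc3a and Fndc3b had folds of 0.936 and 0.786.

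In the anaphase-promoting complex and spindle checkpoint list 1 of 36 genes was feeder-high and none feeder-low, namely the kinetochore gene Ndc80 at 3.24-fold, and Cdc20 was a second by 1394113_at. The median log2 fold was 0.78 and 30 of the 36 were above 0. Without Cdc20 the median was 0.72 and 29 of 35 were above 0, or 82.9%, beside a median of 0.07 and 56.2% of 12514 measured genes. The checkpoint kinase gene Ttk had a fold of 5.37 and Espl1, which encodes separase, 4.04, both with overlapping groups. The summed signal of the list was 29600.8 to 37568 on feeders, 33821.2 in non-binding cells, 24715.5 in laminin-binding cells and 13496 and 14483.4 in the somatic fractions. The 4 Cdc20 probe sets that were not feeder-high had this same order of germ cell over somatic libraries.

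Markers of the cells in each population are given because they moved with some of the same libraries. Of 12 germ cell markers 8 were on the arrays, and 1 of the 8 was feeder-high, Tex15 at 16.3-fold, a gene needed for meiotic recombination. It read 8348.8 to 17496.7 on feeders, 6777.5 in laminin-binding and 3681.2 in non-binding cells. In interstitial and tubular somatic cells it read 71.1 and 218.6. Its lowest feeder library was 1.23 times its highest other library. The summed germ cell signal was 25417.6 to 33514 on feeders and 15134.6 and 29174.1 in laminin-binding and non-binding cells. In interstitial and tubular somatic cells it was 838 and 868.5. All 8 markers had a log2 fold above 0, with a median of 1.98, in a contrast whose other group holds both somatic fractions. Of 32 fibroblast and matrix markers none was feeder-high or feeder-low. Their summed signal was 5124.3 to 12750.8 on feeders, 5730.5 and 4262.1 in laminin-binding and non-binding cells, and 49110.2 and 25159.1 in interstitial and tubular somatic cells. By their brightest probe sets 7 of 31 measured markers had a log2 fold above 0. The largest folds were those of the receptor gene Pdgfra at 2.16, Lgals1, a galectin, at 1.90 and the collagen gene Col5a2 at 1.66, all with overlapping groups. Pdgfra read 300.3 to 649.2 on STO and 105.8 on MSC1, against 83.4 and 27 in laminin-binding and non-binding and 3622.1 and 42.6 in interstitial and tubular cells. At the other end Serpinh1, a collagen chaperone gene, read 29.8 to 46.7 on feeders, under the floor in all 5.

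Of 16 Sertoli markers on the arrays none was feeder-high. Their summed signal was 1210.8 to 2534.1 on feeders, highest on MSC1, and 14418.9 in tubular somatic cells. Of 15 measured markers 5 had a log2 fold above 0 by their brightest probe sets, and the median was -0.96. Sox9 read at most 34.5 in any library, and Cldn11, of Sertoli cell junctions, read 615.5 on MSC1 and 55.6 to 88.3 on STO. None of the Leydig, macrophage or peritubular myoid markers (8, 12 and 8 on the arrays) was feeder-high or feeder-low. Their summed signals were 201.3 to 831.9, 702.6 to 2231.5 and 680.2 to 2134 on feeders. How rat probes read mouse markers was not tested, and neither was the part of these cell types in the feeder-high signals.

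RNA quality was read from the 3' to 5' signal ratio of 2 control genes, which rises with degraded or shortened RNA. That of Gapdh was 14.7 to 29.7 on feeders and 5.63 to 11.2 elsewhere on type A. On type B it was 15.0 to 27.1 on feeders and 5.33 to 16.7 elsewhere. That of beta-actin was 25.8 to 94.3 on feeders and 8.91 to 67.3 elsewhere on type A, and for type B 21.0 to 95.4 on feeders and 11.6 to 48.9 elsewhere. The groups were apart for Gapdh on type A and overlapped in the other 3 of the 4 cases. In all 4 cases both the lowest and the highest ratio on feeders were above those elsewhere. The part of RNA quality in the feeder-high signals was not tested. Scale factors overlapped, at 0.51 to 1.51 on feeders and 0.391 to 1.03 elsewhere for type A, and for type B at 1.44 to 3.83 on feeders and 1.05 to 4.01 elsewhere. On type A 61.5% to 70.4% of probe sets reached the floor on feeders and 59.4% to 64.9% elsewhere, and the ranges overlapped on type B as well.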

How the data were processed

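Each probe set has 1 linear signal intensity per array, deposited after the authors scaled every array to a mean of 250, per the labels. The labels' protocols give 50 ng of starting RNA, amplification in 2 rounds, and detection calls with a Tau of 0.015. Those calls were not used here, and the software and background treatment behind the signals are not stated there. Of the probe sets 57 controls per type were left out and the 100 shared by both types were counted on type A. Probe sets with 1 gene numbered 20253, with several 411 and with none 10378, by the platform annotation, with names and positions from GRCr8.

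Computed with Python 3.11.15, numpy 2.4.6 and pandas 2.3.3: signals were raised to a floor of 50, and the calls given in the report were made within an array type. The rule for feeder-high calls was also run on simulated data with the same noise in every population and planted folds. That checks the code and does not test the calls in these data. Alternatives were floors of 25 and 100, scaling to the 75th percentile, quantile normalization, a fold of 2, and leaving out each population. With 1 library per population no p-value was computed, and the number of arrays limits the precision. Named genes were the 12 probe sets, the 5 probe sets most alike to each feeder-high one, the 10 genes with the widest gaps, called pathway genes, and markers by counts with a few of the largest folds. Pathway genes and markers named for other values (such as Eef1a1, Fasn, Ttk, Serpinh1, Sox9 and Cldn11) were chosen after these were seen. The members and lists were chosen with earlier results of these data known.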

Additional observations from a re-analysis of the deposited data

How the results depend on the processing

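Each of the 4 feeder-high probe sets kept its call under the alternative floors, scalings and fold and without any 1 population, while the sizes moved. With a floor of 25 the log2 fold was 4.52 for Scd2 1398016_at, 3.46 for Fndc3c1 and 3.15 for Cdc20 1394113_at. With a floor of 100 it was 5.22 for Eef2 1396549_at, 3.29 for Scd2, 2.46 for Fndc3c1 and 1.65 for Cdc20. Against the 2 laminin-sorted germ cell libraries it was 5.94 for Eef2, 4.55 for Scd2 and 2.15 for Fndc3c1, and against the 2 somatic libraries 5.14, 3.48 and 3.77, where the 4.55 of Scd2 and the 3.77 of Fndc3c1 are lower bounds because both libraries were under the floor. Leaving out 1 population at a time gave 5.38 to 5.78 for Eef2, 3.84 to 4.52 for Scd2, 2.69 to 3.28 for Fndc3c1 and 2.40 to 2.98 for Cdc20. Under quantile normalization Cdc20 1370294_a_at joined the 4 feeder-high probe sets. With 1 population left out, the number of feeder-high probe sets among the 12 was 4 to 7. It was 7 without laminin non-binding cells, when Cdc20 1370294_a_at, 1387895_s_at and 1389506_x_at joined, and 6 without STO day 1. The number over all probe sets was 528 at a fold of 2 and 191 to 521 with 1 population left out (521 without laminin-binding, 451 without non-binding, 361 without STO day 20), and that of feeder-low ones 304 at a fold of 2 and 130 to 418 (301 without laminin-binding, 418 without non-binding). The cause was not tested. No paired analysis was possible because each population has 1 array of each type. Detection calls were not used, so a signal near the floor has no shown presence.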
